A study of Homo sapiens with 12 samples.

Results

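The 41 genes described here build and police the attachment between chromosomes and the mitotic spindle. They were listed by name, with no threshold on a measured value, though with earlier results of these data known. The list was drawn from the 34643 gene symbols of a table of estimated counts from LNCaP cells, and all 41 passed the filter on low counts that left 15419 genes for testing. LNCaP is an androgen-sensitive human prostate cancer cell line. The cells carried lentiviral shRNA, driven by a U6 promoter on a puromycin-selected plasmid, against TMEFF2 (shTMEFF2), a transmembrane protein of prostate cells that is itself androgen regulated, or a scrambled sequence (shScramble). About 2.5 weeks after transduction both lines were kept for 24 hours in charcoal-stripped serum, which removes androgens, and then received 10 nM of the androgen dihydrotestosterone (DHT) or ethanol vehicle for another 24 hours. This gave 4 groups of 3 libraries each: shScramble with vehicle, shScramble with DHT, shTMEFF2 with vehicle and shTMEFF2 with DHT. The 3 libraries of a group came from separate treatments and RNA extractions of 2 transductions, and the labels do not say which library belongs to which transduction.

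Library totals lay between 19450866 and 22612046 counts. TMEFF2 itself was at 77.8, 73.8 and 103 CPM (counts relative to library size, scaled by the TMM method) in shScramble with vehicle and at 68.6, 39.3 and 81.7 CPM in shTMEFF2 with vehicle. With DHT it was at 173, 117 and 169 CPM in shScramble and at 142, 90.1 and 114 CPM in shTMEFF2. The lines overlapped at both DHT levels, and the lower mean in shTMEFF2 was not called by edgeR's quasi-likelihood test (log2 fold change -0.43 ± 0.25 (SE), Benjamini-Hochberg adjusted p = 0.5, without DHT; -0.41 ± 0.25, adjusted p = 0.3, with DHT). These are RNA counts, and protein was not measured in these libraries. By Western blot in LNCaP cells, the study reports silencing of TMEFF2 protein with some of its TMEFF2 shRNAs. For the silencing it also cites TMEFF2 mRNA levels in LNCaP cells with the silencing shRNAs or the scramble control, with and without DHT. Those mRNA levels were not compared with the libraries here. Luminal markers were present in every group but moved with the groups. FOLH1 had means of 1392 to 2566 CPM and HOXB13 of 363 to 484 CPM. Summed over 8 luminal markers, some of them androgen targets such as KLK3, the libraries lay between 6568 and 6825 CPM in shScramble with vehicle and between 13081 and 14491 CPM with DHT. In shTMEFF2 the sums were 4327 to 4907 and 5156 to 6540.0 CPM. With DHT 5 of the 8 were called lower in shTMEFF2 than in shScramble, and 2 without DHT. CD3E and KRT5, which mark T cells and basal epithelium, had means between 0 and 0.0167 CPM. Of 8 markers of other cell types, 5 passed the filter on low counts, with COL1A1, a collagen gene, the highest at means of 12.3 to 25.3 CPM. Their summed level was 30.3 to 30.7 and 23.05 to 27.3 CPM in shScramble and 34.2 to 46.1 and 27.99 to 33.1 CPM in shTMEFF2, with vehicle and with DHT. With DHT in shScramble 3 of these 5 were called lower and 1 higher, and 1 was called lower in shTMEFF2. PTPRC and COL3A1, named after their values were seen, were called higher in shTMEFF2 than in shScramble with DHT. The part of either marker list in the results on the 41 genes was not tested.

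The kinetochore is the protein platform that assembles on centromeric chromatin and binds spindle microtubules. Its base is nucleosomes with the histone variant CENP-A, on which the constitutive centromere-associated network (CCAN, the inner kinetochore) sits, and on that the microtubule-binding outer kinetochore and a fibrous corona. The spindle checkpoint delays anaphase while kinetochores are unattached, and the chromosomal passenger complex, with Aurora B kinase, releases wrongly attached microtubules. Most of these genes are transcribed mainly in late S, G2 and M phase. B-MYB-MuvB and FOXM1 then act through a short promoter element, the cell cycle homology region (CHR).

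Promoter windows from 250 bases before to 50 bases after each RefSeq gene start were available for 32 of the 41 genes (RefSeq, GRCh38.p14). CENPH, CENPL, CENPM, MIS18A, KNTC1, BUB3, TTK, BIRC5 and GSG2 were not matched. The letters TTTGAA or TTCGAA of the CHR were searched on both strands and stood in 21 of 32 windows (65.6%), against 1936 of the 16128 windows of genes tested and 16.4% of all 35116 windows. Counted only between base -40 and base 50, limits chosen after the positions were seen, they stood in 19 of 32 windows (59.4%), against 3.2% of the windows of genes tested. To show how this element sits at member genes, 30 bases around it are given, on the strand of the gene, with the CHR letters in capitals.
BUB1B, chr15:40161034-40161063, plus strand: gggaccgttaaaTTTGAAacttggcggcta
PLK1, chr16:23678848-23678877, plus strand: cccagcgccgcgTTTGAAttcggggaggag
CDCA8, chr1:37692481-37692510, plus strand: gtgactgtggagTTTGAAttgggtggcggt
CENPA, chr2:26786026-26786055, plus strand: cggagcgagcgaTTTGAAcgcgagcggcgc
SPC25, chr2:168890416-168890445, minus strand: aagtgcactaggTTTGAAatcggaaagttg
BUB1, chr2:110678045-110678074, minus strand: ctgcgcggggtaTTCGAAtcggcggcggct
CENPN, chr16:81007205-81007234, plus strand: gcaattggtggcTTTGAAggcgcggcgagc

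The first CHR base lay at -29 in PLK1, -23 in BUB1B and CDCA8, -18 in CENPA, -3 in SPC25, 2 in BUB1 and 4 in CENPN, counted from the gene start. The 120 bases before the start of ZWINT, which do not overlap any exon annotated in GENCODE v44, show the fuller arrangement, with 2 CCAAT boxes (CCAAT, the binding letters of NF-Y) and a CHR, read here as its reverse complement TTCAAA, all in capitals.
ZWINT, chr10:56361274-56361393, minus strand: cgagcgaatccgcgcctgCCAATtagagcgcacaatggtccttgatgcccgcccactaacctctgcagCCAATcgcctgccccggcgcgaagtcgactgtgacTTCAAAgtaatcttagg
CCAAT boxes, searched on both strands, stood in 22 of 32 windows (68.8%; 34.5% of the windows of genes tested), and a CHR together with a CCAAT box in 43.8% (4.7%). Letters of E2F sites, searched as TTCCCGC or as TTGGCGC or as TTCGCGC or as TTGCCGC on both strands, stood in 40.6% (18.2%). Androgen receptor letters (AGAACA, both strands) stood in 3 of 32 windows (9.4%), near the 10.3% of the windows of genes tested. CENPI, ZWILCH, MIS12, AURKB and CENPE had no CHR letters in these windows. For 7 of the 32 genes the RefSeq start lay over 500 bases inside the gene as annotated in GENCODE v44, and 5 of these windows held CHR letters. The 2 without were CENPI, read 2870 bases inside, and CENPP, read 274304 bases inside, so the first start of these genes was not searched. The 5 with CHR letters include CENPA, SPC25, PLK1 and CENPN shown above, read 21767, 22941, 1233 and 662 bases inside. Their first start was not searched either, and their distances count from the RefSeq start. The first start also lay outside the window, and was not searched, for AURKB, ZWILCH and MIS12, read 351, 367 and 281 bases inside. A match of letters is a description and not a site shown to be bound.

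**Figure D1:**
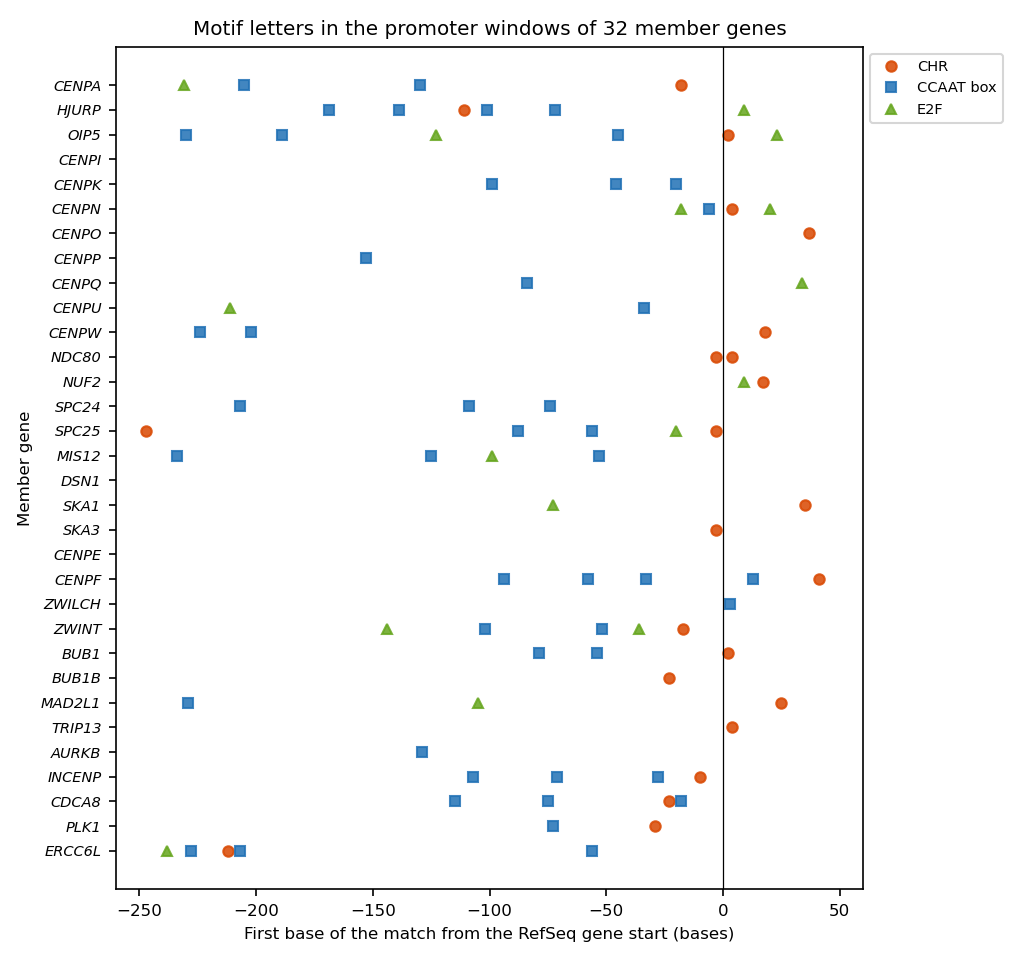
Positions of CHR, CCAAT box and E2F letters (orange circles, blue squares, green triangles) in the promoter windows of 32 genes, 1 row per gene; the x axis gives the first base of each match from the RefSeq gene start (vertical line). CHR letters gather around the start in 19 of the 32 genes, while CCAAT boxes spread upstream.

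The first comparison asked how androgen changed these genes in each line. Kinetochore and checkpoint mRNAs rose with DHT in shTMEFF2 almost as a block, and far fewer passed the same limits in shScramble. A gene was called where the fold change reached 1.5 and the adjusted p did not exceed 0.05 (edgeR's quasi-likelihood test, Benjamini-Hochberg over all genes tested). By these limits 35 of 41 were called higher with DHT in shTMEFF2, where 3.28% of all genes tested were, and 4 of 41 in shScramble, where 5.45% of all genes tested were. None of the 41 was called lower with DHT in either line, against 1.6% and 6.45% of all genes tested, also not at an unadjusted p under 0.05 (0 genes) or with DESeq2 (0 genes). On the adjusted p alone, 38 genes passed in shTMEFF2 (7.84% of all genes tested) and 14 in shScramble (14.4%). The median log2 fold change of the 41 genes was 0.88 in shTMEFF2 and 0.37 in shScramble, while the medians over all genes tested were -0.02 and -0.01. The response was positive in 41 of 41 genes in shTMEFF2 and in 40 of 41 in shScramble, PLK1 being the exception. Every DHT library lay above every vehicle library for 37 genes in shTMEFF2 (15.6% of all genes tested) and for 22 in shScramble (21.3%). In bulk RNA, a larger share of cells in the cycle and more of these mRNAs per cycling cell cannot be told apart.

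The study picked BUB1B, CENPI, ERCC6L and GSG2 from these libraries, first for their rise with DHT in shTMEFF2, so their direction here is not independent evidence. Later steps for its signature used higher expression in patients with low TMEFF2 and functional association. GSG2 entered an extended signature for its prognostic value and its absence from an earlier published signature. By qRT-PCR in LNCaP cells, the study also reports a larger DHT induction of its signature genes where TMEFF2 was low. Its qRT-PCR primers include BUB1B, CENPI and ERCC6L. The full selection of the study was not used here and may hold more of the 41. Among the other 37 genes, 31 were called higher with DHT in shTMEFF2 and 3 in shScramble, with medians of 0.88 and 0.37.

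**Figure D2:**
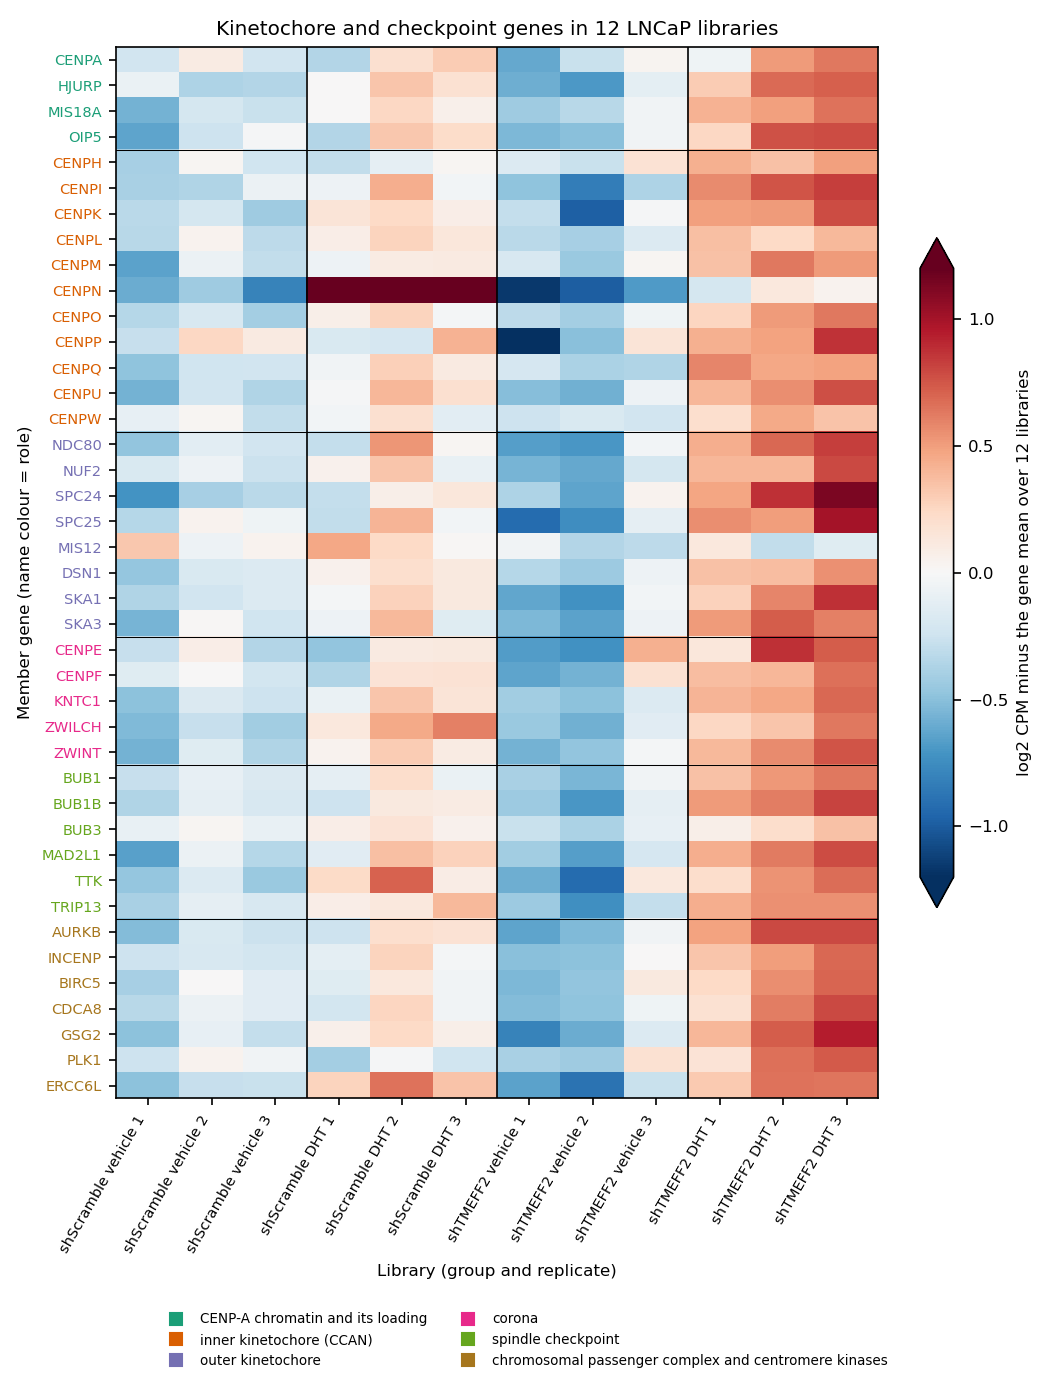
Level of each of the 41 genes (rows, names coloured by role) in each of the 12 libraries (columns), as log2 CPM minus the mean of the gene over the 12 libraries; red is above and blue below that mean, and the colour scale is exceeded by CENPN and CENPP. The 3 shTMEFF2 libraries with DHT are red in nearly all rows, and CENPN stands out in shScramble with DHT.

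CENP-A chromatin was represented by CENPA, the centromeric histone, HJURP, its chaperone, and MIS18A and OIP5, 2 subunits of the Mis18 complex that licenses its deposition. With DHT in shTMEFF2, 3 of the 4 genes were called higher, and 0 of 4 in shScramble (2 at an unadjusted p under 0.05, 0 with DESeq2). HJURP was at 34.2, 27.8 and 28.2 CPM in shScramble with vehicle and at 36.1, 45.3 and 40.7 CPM with DHT. In shTMEFF2 it was at 23.8, 22.4 and 33.1 CPM with vehicle and at 44.4, 57.7 and 59.3 CPM with DHT. The groups were apart in both lines, with a log2 response of 0.44 ± 0.16 (adjusted p = 0.057) in shScramble and 1.02 ± 0.16 (adjusted p = 0.0017) in shTMEFF2. In shScramble CENPA was at 7.83, 9.86 and 7.83 CPM with vehicle and at 7.22, 10.5 and 11.4 CPM with DHT, with overlapping groups. Its shTMEFF2 libraries were at 6.01, 7.61 and 9.42 CPM with vehicle and at 8.89, 13.1 and 14.3 CPM with DHT. There too the groups overlapped, and the response of 0.66 ± 0.22 was not called (adjusted p = 0.072). It was called, at 0.84, both without vehicle replicate 3, its highest vehicle library, and without DHT replicate 1, its lowest DHT library.

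The inner kinetochore held 11 genes, of which 9 were called higher with DHT in shTMEFF2, and 1, CENPN, in shScramble. CENPI, a CCAN subunit that helps to recruit new CENP-A, had the largest response in shTMEFF2. It was at 14.6, 14.9 and 18.2 CPM in shScramble with vehicle and at 18.3, 26.1 and 18.8 CPM with DHT. In shTMEFF2 it went from 13.7, 10.7 and 14.8 CPM to 28.5, 32.2 and 34.1 CPM. The shScramble groups were only just apart, while in shTMEFF2 each DHT library was far above each vehicle library, at a log2 response of 1.28 ± 0.16 (adjusted p = 6.8e-04), against 0.41 ± 0.16 (adjusted p = 0.077) in shScramble. CENPH was at 15.8, 21.1 and 17.7 CPM with vehicle and at 16.9, 19.3 and 21.2 CPM with DHT in shScramble, and at 18.7, 17.3 and 23.5 and then 28.2, 26.6 and 29.3 CPM in shTMEFF2. CENPW was at 9.82, 10.7 and 8.52 CPM with vehicle and at 10.3, 12.01 and 9.60 CPM with DHT in shScramble, and at 8.85, 9.29 and 8.96 and then 12.1, 14.4 and 13.4 CPM in shTMEFF2. Both overlapped in shScramble and were apart in shTMEFF2. CENPH (0.50 ± 0.14, adjusted p = 0.03) and CENPW (0.56 ± 0.12, adjusted p = 0.012), both CCAN subunits, passed the test in shTMEFF2 but stayed under a fold of 1.5. CENPP, at a log2 response of 1.09 ± 0.32 in shTMEFF2 (adjusted p = 0.044), rested on widely spread vehicle libraries at 3.80, 8.01 and 12.6 CPM.

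CENPN, whose protein reads the CENP-A nucleosome directly, had the largest response of the 41 genes in shScramble, and its response was smaller in shTMEFF2. It was at 69.5, 78.2 and 60.7 CPM in shScramble with vehicle and at 323, 312 and 305 CPM with DHT. In shTMEFF2 it was at 47.2, 53.1 and 65.8 CPM with vehicle and at 91.3, 116 and 109 CPM with DHT. DHT and vehicle libraries were apart in both lines, and all 3 shScramble libraries with DHT lay far above all 3 of shTMEFF2. The log2 response was 2.17 ± 0.13 in shScramble (adjusted p = 2.0e-07) and 0.93 ± 0.13 in shTMEFF2 (adjusted p = 9.4e-04). With DHT it was lower in shTMEFF2 by a log2 fold change of -1.58 ± 0.13 (adjusted p = 6.9e-06), the only one of the 41 genes called lower there (3.74% of all genes tested). CENPN (chromosome 16, 81006552 to 81033114, plus strand, GRCh38) overlaps CMC2, a gene on the other strand that was looked up after the CENPN values were seen. CMC2 also rose with DHT, at 0.88 in shScramble (adjusted p = 9.9e-05) and 0.66 in shTMEFF2 (adjusted p = 0.0033), and the difference between these responses, -0.22, was not called (adjusted p = 0.54). With DHT it was lower in shTMEFF2 by a log2 fold change of -0.60 (adjusted p = 0.0029). Whether the estimated counts split reads between the overlapping genes was not tested.

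**Figure D3:**
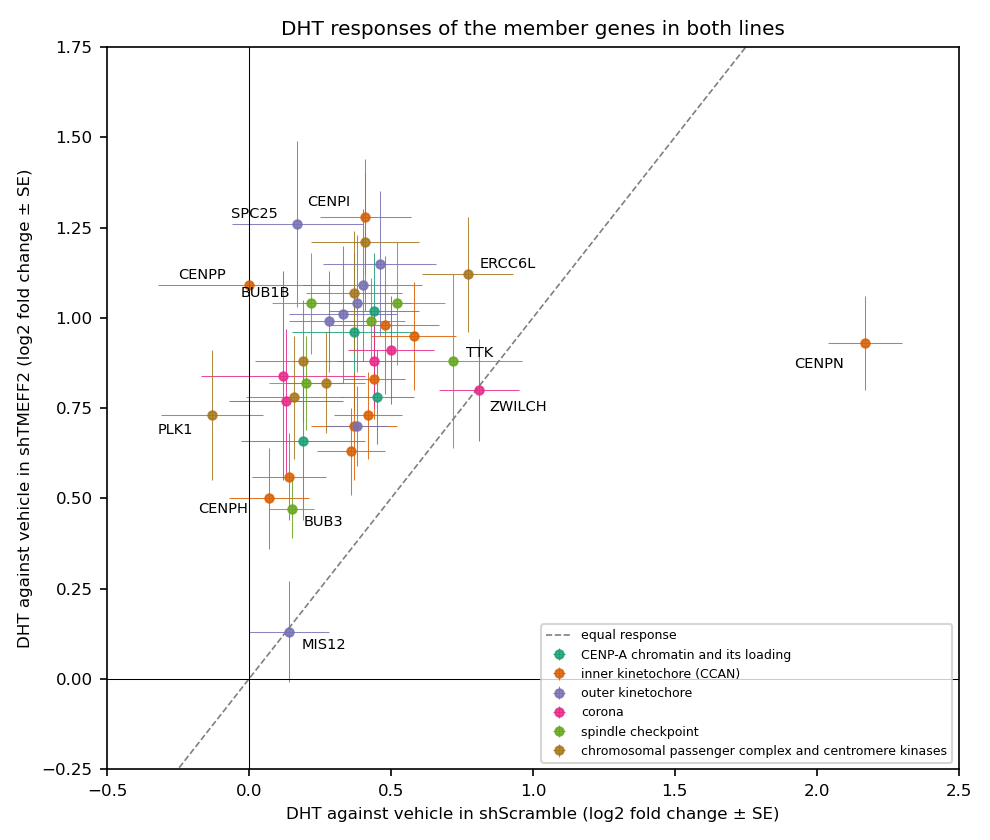
DHT response of each of the 41 genes (points, coloured by role) as a log2 fold change with its SE, in shScramble on the x axis and shTMEFF2 on the y axis; the dashed line marks equal responses. Of the 41 points, 38 lie above the line, CENPN lies far to the right at 2.17 and 0.93, and MIS12 lies near 0 in both lines. The lines have separate vehicle libraries.

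The outer kinetochore held the 4 subunits of the NDC80 complex that grips the microtubule (NDC80, NUF2, SPC24 and SPC25), 2 subunits of the MIS12 complex that ties it to the CCAN (MIS12 and DSN1), and SKA1 and SKA3, which strengthen the grip. With DHT in shTMEFF2 7 of the 8 were called higher, and 0 of 8 in shScramble (2 at an unadjusted p under 0.05, 0 with DESeq2). SPC25 was at 11.6, 15.1 and 14.2 CPM in shScramble with vehicle and at 11.96, 19.6 and 14.5 CPM with DHT. In shTMEFF2 it was at 7.74, 8.72 and 13.6 CPM with vehicle and at 21.7, 20.9 and 29.5 CPM with DHT. The shScramble groups overlapped and the shTMEFF2 groups were apart, at log2 responses of 0.17 ± 0.23 (adjusted p = 0.62) and 1.26 ± 0.23 (adjusted p = 0.0044). NUF2 was at 26.5, 28.8 and 25.1 CPM with vehicle and at 31.2, 38.0 and 28.4 CPM with DHT in shScramble, and at 20.4, 19.8 and 26.0 and then 39.9, 39.8 and 52.0 CPM in shTMEFF2. It was apart only in shTMEFF2, with responses of 0.28 ± 0.14 (adjusted p = 0.17) and 0.99 ± 0.14 (adjusted p = 0.0012). SPC24 was at 17.0, 21.4 and 22.5 CPM with vehicle and at 23.0, 29.6 and 31.0 CPM with DHT in shScramble, and at 21.8, 18.1 and 28.9 and then 39.1, 52.0 and 61.9 CPM in shTMEFF2. It was apart in both lines, with responses of 0.46 ± 0.20 (adjusted p = 0.11) and 1.15 ± 0.20 (adjusted p = 0.003).

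MIS12 was the exception of the outer kinetochore. It was at 76.6, 58.6 and 62.9 CPM in shScramble with vehicle, 84.2, 72.1 and 61.7 CPM with DHT, 59.3, 48.1 and 49.3 CPM in shTMEFF2 with vehicle and 67.1, 49.8 and 55.0 CPM with DHT. DHT and vehicle libraries overlapped in both lines, at log2 responses of 0.14 ± 0.14 (adjusted p = 0.52) and 0.13 ± 0.14 (adjusted p = 0.6). Its partner DSN1 responded at 0.70 in shTMEFF2 (adjusted p = 0.0022) and at 0.38 in shScramble (adjusted p = 0.024), with its DHT libraries above its vehicle libraries in both lines.

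Per kilobase of the canonical transcript, the genes of the NDC80 complex were at uneven levels within a group. The deposited counts were length-scaled, and expressed transcripts may differ in length from the canonical one. The part of this in differences between genes was not tested. In shScramble with vehicle, NDC80 was at 19.4 ± 2.28 CPM per kb (SD, n = 3), NUF2 at 13.7 ± 0.954, SPC25 at 10.2 ± 1.36 and SPC24 at 8.87 ± 1.27. SPC25 and SPC24 did not differ beyond their spread. In shTMEFF2 with DHT the levels were 37.1 ± 4.93 CPM per kb for NDC80, 22.4 ± 3.57 for NUF2, 22.3 ± 4.999 for SPC24 and 17.9 ± 3.52 for SPC25, and only NDC80 stood clear of the other 3. Over all 41 genes in shTMEFF2 with DHT, ZWINT had the highest level per kilobase (77.0 ± 9.35) and CENPP the lowest (2.09 ± 0.367).

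The corona held CENPE, a kinesin that moves chromosomes to the spindle equator, CENPF, a large coiled-coil protein that binds dynein regulators, KNTC1 and ZWILCH, subunits of the RZZ complex that brings dynein and checkpoint proteins to the kinetochore, and ZWINT, which anchors RZZ. With DHT in shTMEFF2 4 of the 5 were called higher, and 1, ZWILCH, in shScramble. ZWILCH was at 50.7, 60.4 and 54.9 CPM in shScramble with vehicle and at 80.0, 99.9 and 111 CPM with DHT. In shTMEFF2 it was at 53.7, 48.9 and 66.3 CPM with vehicle and at 87.4, 92.3 and 114 CPM with DHT. The groups were apart in both lines and the responses were alike in size, 0.81 ± 0.14 (adjusted p = 0.0011) and 0.80 ± 0.14 (adjusted p = 0.0039). KNTC1, the RZZ partner of ZWILCH, was at 52.3, 65.4 and 62.0 CPM with vehicle and at 69.5, 92.7 and 81.8 CPM with DHT in shScramble, and at 54.9, 52.5 and 66.05 and then 98.0, 101 and 119 CPM in shTMEFF2. ZWINT was at 64.5, 86.1 and 74.4 CPM with vehicle and at 98.6, 118 and 103 CPM with DHT in shScramble, and at 64.4, 68.9 and 94.3 and then 126, 143 and 161 CPM in shTMEFF2. Both were apart in both lines. KNTC1 responded at 0.44 ± 0.13 (adjusted p = 0.02) and 0.88 ± 0.13 (adjusted p = 0.0012). ZWINT responded at 0.50 ± 0.15 (adjusted p = 0.023) and 0.91 ± 0.15 (adjusted p = 0.0023).

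CENPE and CENPF, the 2 corona genes with the longest transcripts, had small responses in shScramble, at 0.12 ± 0.29 (adjusted p = 0.8) and 0.13 ± 0.20 (adjusted p = 0.66). CENPF was at 111, 123 and 106 CPM with vehicle and at 95.6, 138 and 138 CPM with DHT in shScramble, and at 79.6, 83.0 and 139.6 and then 159, 163 and 194 CPM in shTMEFF2. It overlapped in shScramble and was apart in shTMEFF2. There CENPF was called at 0.77 ± 0.20 (adjusted p = 0.023), and CENPE, at 0.84 ± 0.29, was not (adjusted p = 0.077). CENPE was at 46.4, 59.4 and 44.2 CPM in shScramble with vehicle, at 40.8, 60.9 and 61.3 CPM with DHT, at 35.4, 34.0 and 76.0 CPM in shTMEFF2 with vehicle and at 62.2, 104 and 93.6 CPM with DHT. Vehicle replicate 3 lay above DHT replicate 1, and the response was called both without that vehicle library, at 1.33, and without that DHT library, at 1.03.

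The spindle checkpoint was represented by BUB1 and TTK, kinases that start the signal at the kinetochore, BUB1B (BUBR1), BUB3 and MAD2L1, components of the mitotic checkpoint complex, and TRIP13, an ATPase that takes that complex apart. With DHT in shTMEFF2 5 of the 6 were called higher, and 1, TTK, in shScramble. BUB1B was at 66.2, 79.0 and 74.7 CPM in shScramble with vehicle and at 71.8, 92.3 and 91.2 CPM with DHT. In shTMEFF2 it was at 62.8, 52.3 and 79.0 CPM with vehicle and at 121, 129.8 and 149 CPM with DHT. The shScramble groups overlapped and the shTMEFF2 groups were well apart, at log2 responses of 0.22 ± 0.14 (adjusted p = 0.3) and 1.04 ± 0.14 (adjusted p = 9.8e-04). BUB1B (chromosome 15, 40161023 to 40221123, plus strand) overlaps the readthrough gene BUB1B-PAK6 on the same strand, and how reads were shared between them was not tested. TTK was at 21.6, 26.7 and 21.8 CPM in shScramble with vehicle and at 35.0, 48.7 and 31.7 CPM with DHT, a response of 0.72 ± 0.24 (adjusted p = 0.039) that lost its call in 5 of the 12 leave-one-out fits. The shTMEFF2 libraries had 19.8, 15.7 and 32.6 CPM with vehicle and 34.6, 43.4 and 47.4 CPM with DHT and did not overlap, with a response of 0.88 ± 0.24 (adjusted p = 0.028). BUB3 was at 148, 160.0 and 148 CPM with vehicle and at 166, 176 and 163 CPM with DHT in shScramble, and at 130.2, 121 and 146 and then 166, 182 and 201 CPM in shTMEFF2. It was apart in both lines. BUB3 had the smallest SE of the 41 genes in shTMEFF2 and a response of 0.47 ± 0.08 in shTMEFF2 (adjusted p = 0.0042), under a fold of 1.5.

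The chromosomal passenger complex (AURKB, INCENP, BIRC5 and CDCA8) and 3 enzymes of the centromere (GSG2, the histone H3 kinase haspin that recruits the complex, PLK1, a mitotic kinase, and ERCC6L, the PICH translocase of anaphase bridges) gave 7 of 7 genes called higher with DHT in shTMEFF2 and 1 of 7, ERCC6L, in shScramble. PLK1 was at 46.8, 57.5 and 54.5 CPM in shScramble with vehicle and at 42.0, 55.4 and 47.2 CPM with DHT. In shTMEFF2 it was at 42.5, 41.5 and 63.2 CPM with vehicle and at 62.6, 88.5 and 93.3 CPM with DHT. The groups overlapped in both lines, in shTMEFF2 through vehicle replicate 3, and the log2 responses were -0.13 ± 0.18 (adjusted p = 0.63) and 0.73 ± 0.18 (adjusted p = 0.019). The call in shTMEFF2 was lost in 4 of the 12 leave-one-out fits. GSG2 was at 5.93, 7.81 and 6.804 CPM with vehicle and at 8.73, 9.86 and 8.75 CPM with DHT in shScramble, and at 4.76, 5.49 and 7.47 and then 11.02, 13.9 and 16.1 CPM in shTMEFF2. It was apart in both lines and had the largest response of this set in shTMEFF2, at 1.21 ± 0.19 (adjusted p = 0.0017). ERCC6L was at 16.5, 19.1 and 19.2 CPM in shScramble with vehicle and at 27.9, 36.4 and 29.3 CPM with DHT, apart by a response of 0.77 ± 0.16 (adjusted p = 0.0029), and rose from 14.9, 12.5 and 19.2 to 28.7, 36.6 and 36.1 CPM in shTMEFF2, at 1.12 ± 0.16 (adjusted p = 0.0011).

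**Figure D4:**
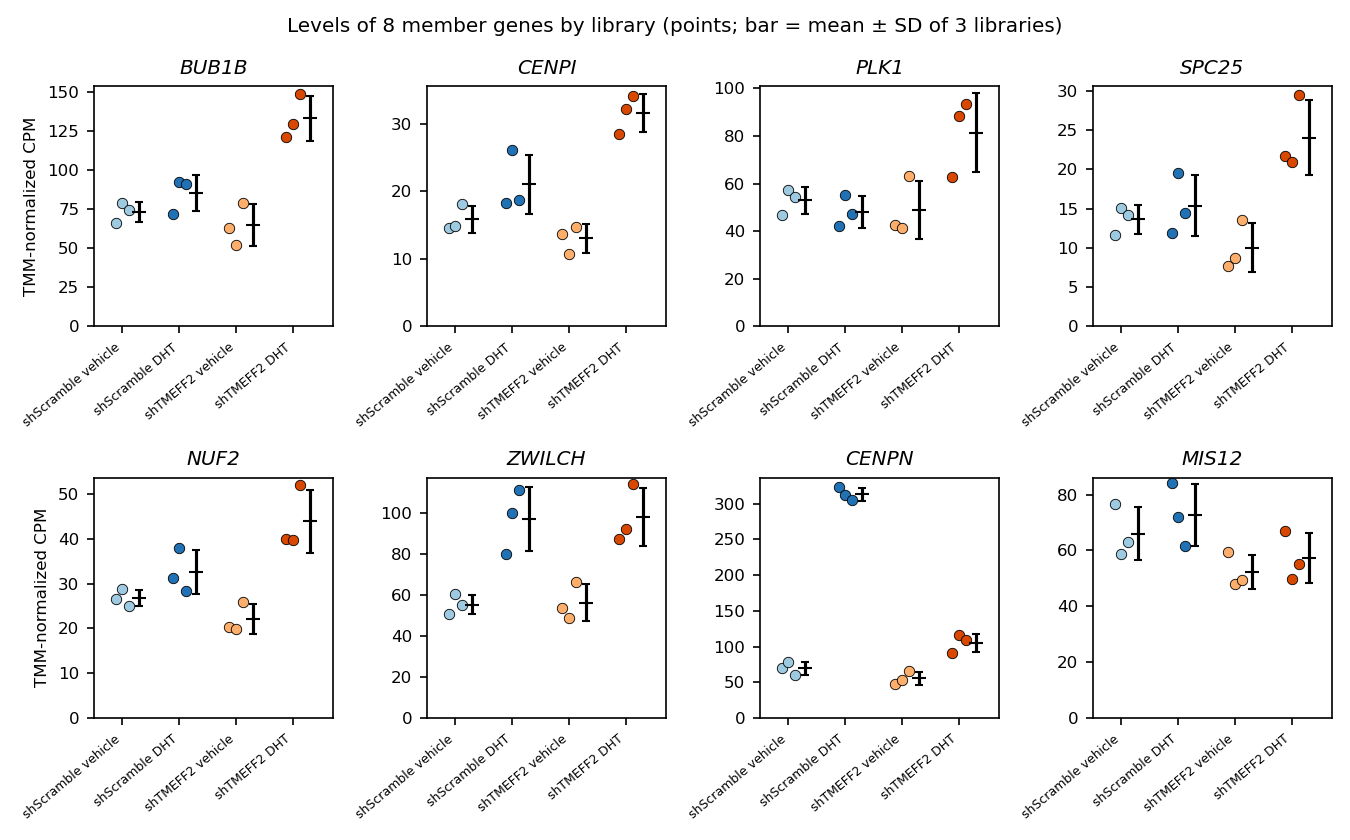
TMM-normalized CPM of 8 genes in each library (points, 3 per group, all axes from 0), with the mean ± SD of each group as a bar beside the points. The shTMEFF2 libraries with DHT are the highest for BUB1B, CENPI, SPC25 and NUF2; CENPN is highest in shScramble with DHT, ZWILCH rises alike in both lines, and MIS12 overlaps throughout.

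The second comparison asked whether the lines differed at a fixed DHT level. Without DHT, 0 of 41 genes were called in either direction (0.298% of all genes tested were called higher and 0.272% lower in shTMEFF2). At an unadjusted p under 0.05, 0 were higher and 3 lower (6.98% and 6.51% of all genes tested), DESeq2 called 0, and the median log2 fold change was -0.10. With DHT, 5 of 41 were called higher in shTMEFF2 (3.03% of all genes tested), with a median log2 fold change of 0.44. These were SPC24 (0.87 ± 0.19, adjusted p = 0.0087), PLK1 (0.76 ± 0.18, adjusted p = 0.013), BUB1B (0.65 ± 0.14, adjusted p = 0.0082), AURKB (0.64 ± 0.17, adjusted p = 0.022) and CENPI (0.59 ± 0.16, adjusted p = 0.022). On the adjusted p alone 12 were higher (6.93% of all genes tested), and at an unadjusted p under 0.05, 32 were (14.1%). The count of 5 turned on single libraries. It was 1 without shScramble with DHT replicate 1, 2 without shTMEFF2 with DHT replicate 3 and 11 without shScramble with DHT replicate 2. It was 8 without shTMEFF2 with DHT replicate 1, and also 8 without shTMEFF2 with vehicle replicate 3.

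The third comparison tested directly whether the DHT response differed between the lines. The difference was positive in 38 of 41 genes, with a median of 0.55 on the log2 scale (0.01 over all genes tested), but only 2 genes passed an adjusted p of 0.05 as larger in shTMEFF2 (1.65% of all genes tested) and 1 as smaller (3.29%). CENPI responded more in shTMEFF2 by 0.87 ± 0.22 (adjusted p = 0.043) and BUB1B by 0.83 ± 0.20 (adjusted p = 0.034), and CENPN responded less, by -1.25 ± 0.18 (adjusted p = 0.0015). Both genes with a larger response are among those the study picked from these libraries. Of the 37 genes outside that choice 0 were called larger by the edgeR fit used for all comparisons here. Of them 22 were at an unadjusted p under 0.05 and DESeq2 called 5. With the replicate number as a block, edgeR called 10 of the 41, with PLK1, TRIP13, BUB1 and SPC25 among them. Whether these numbers pair the libraries is not known. Just short of the limit were NUF2 (0.71 ± 0.20, adjusted p = 0.064), PLK1 (0.87 ± 0.25, adjusted p = 0.076), TRIP13 (0.56, adjusted p = 0.077), BUB1 (0.62, adjusted p = 0.078) and SPC25 (1.09 ± 0.32, adjusted p = 0.08), all of which DESeq2 called. At an unadjusted p under 0.05, 25 genes were larger and 1 smaller (8.06% and 9.48% of all genes tested). ZWILCH (-0.02 ± 0.20) and MIS12 (-0.00 ± 0.20) had differences near 0. By role, the median difference was 0.69 for the outer kinetochore and for the passenger complex with its kinases, 0.54 for the checkpoint, 0.53 for CENP-A chromatin, 0.43 for the corona and 0.39 for the inner kinetochore, and the differences between roles were not tested. Genes with CHR letters had a median difference of 0.59 (21 genes) and those without of 0.50 (11 genes). Those without include CENPI, CENPP, AURKB, ZWILCH and MIS12, whose first annotated start was not searched. The contrast by CHR letters was not tested.

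The count of 2 larger responses depended on the tool, the filter and the libraries that entered. It was 7 with DESeq2 and 6 with no filter on low counts. It was 16 without shTMEFF2 with vehicle replicate 3, 5 without shScramble with DHT replicate 2 and 0 or 1 without any of 8 other libraries. CENPN kept its call in each of the 12 leave-one-out fits, BUB1B in 5 and CENPI in 2.

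Within a group, these genes moved together from library to library. Of the 3 shTMEFF2 libraries with vehicle, replicate 3 was the highest for 38 of 41 genes. In shScramble with DHT replicate 1 was the lowest for 31 genes and replicate 2 the highest for 30. After each group mean was removed, the median Pearson correlation of a gene with the mean of the other members over the 12 libraries was 0.88, and 32 of 41 genes (78.0%) were above 0.7, against 5.8% of all genes tested. These are descriptions over points that share libraries. MIS12 was lowest at -0.57, with CENPQ at 0.23 and CENPW at 0.32.

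Cell cycle phase markers moved with these levels. The mean of the 41 genes, as log2 CPM minus the mean of each gene, was -0.51, -0.57 and -0.07 in the 3 shTMEFF2 libraries with vehicle. The S phase markers were at -0.46, -0.39 and -0.05 and the G2/M markers at -0.47, -0.60 and -0.06 in the same libraries. In shTMEFF2 with DHT the 41 genes were at 0.33, 0.53 and 0.66. All 12 S phase markers were above 0 in the DHT response of both lines, with medians of 0.57 in shScramble and 0.84 in shTMEFF2, and 3 and 10 of them were called higher. The 10 G2/M markers had medians of 0.26 and 0.98, and 0 and 10 of them were called higher (4 at an unadjusted p under 0.05 and 0 with DESeq2 in shScramble). The study's qRT-PCR primers include RRM2, an S phase marker, and NUSAP1, a G2/M marker. These lists are therefore not fully independent of its selection from these libraries. The share of cells in each phase was not measured, and its part in the responses of the kinetochore genes was not tested.

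**Figure D5:**
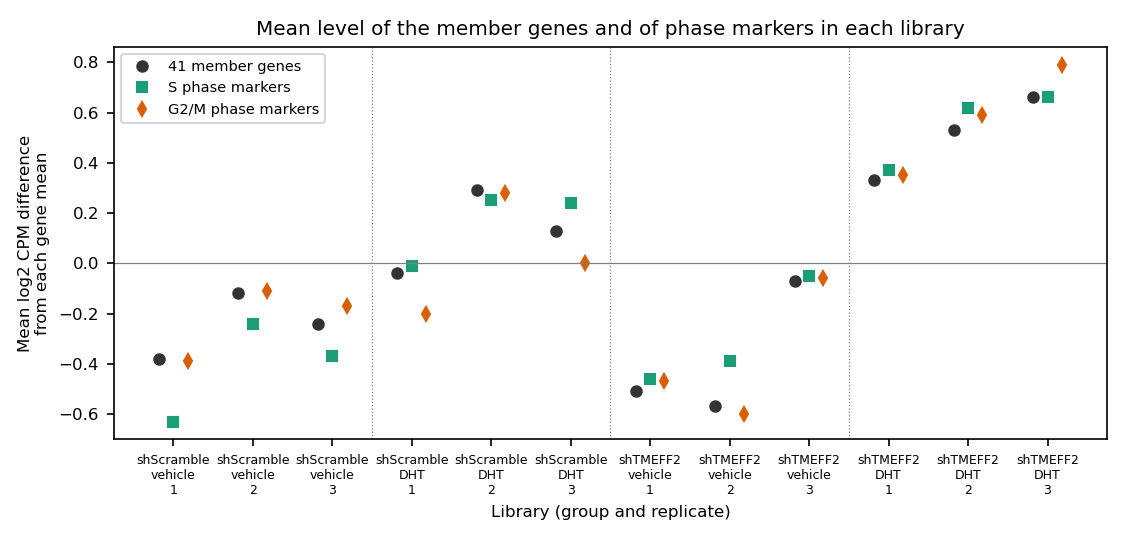
Mean level of the 41 genes (black circles), S phase markers (green squares) and G2/M markers (orange diamonds) in each library, as log2 CPM minus the mean of each gene over the 12 libraries. The 3 libraries of shTMEFF2 with DHT are the highest for all 3 sets; shTMEFF2 with vehicle replicate 3 is at -0.07 for the 41 genes, against -0.51 and -0.57 for the other libraries of its group.

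Other genes of the same structures gave a mixed picture. Of 28 further kinetochore and checkpoint genes, 7 were called higher with DHT in shTMEFF2 and 1 in shScramble, with median log2 responses of 0.16 and 0.07. Those called in shTMEFF2 included ESPL1, SGO1, SGO2, KNL1, CDC20 and SPDL1, examples chosen after their values were seen, which act in mitosis as separase, shugoshins, outer kinetochore scaffold, checkpoint target and dynein adaptor. ESPL1 had the largest response in shTMEFF2 (1.06 ± 0.20, adjusted p = 0.0052), followed by SGO1 (1.02 ± 0.13, adjusted p = 8.7e-04) and SKA2 (0.92 ± 0.29, adjusted p = 0.059). The smallest were CENPV (-0.27 ± 0.18, adjusted p = 0.38), CLASP1 (-0.24 ± 0.11, adjusted p = 0.16) and ZNF207 (-0.03 ± 0.06, adjusted p = 0.83). CENPX, which also serves DNA repair, was the 1 gene called in shScramble (0.82 ± 0.11, adjusted p = 1.5e-04). None of the 28 was called for the difference of responses by edgeR, while 7 were larger and 1 smaller in shTMEFF2 at an unadjusted p under 0.05, and DESeq2 called 3 larger. Replication genes were called higher with DHT in 34 of 50 cases in shTMEFF2 and 13 of 50 in shScramble, with medians of 0.75 and 0.47. Mitotic kinesin, condensin and cytokinesis genes were called in 25 of 28 and 2 of 28 cases, with medians of 0.87 and 0.28. CDC45 and CLSPN among the replication genes and NCAPG among the condensin genes belong to the study's signature. Their direction here is not independent evidence.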

How the data were processed

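The authors checked reads with FastQC, trimmed them with Trimmomatic and pseudoaligned them to the GRCh38 transcriptome with kallisto 0.42.3, and deposited length-scaled estimated counts per gene for LNCaP libraries of 75 bp paired reads. The table had 24 columns, 2 per library, and 0 columns of no sample. The 2 columns were summed and rounded, which gave 19450866 to 22612046 counts per library. By a chi-square comparison the 2 libraries of a pair within a group differed by a median statistic 4.91 to 6.30 times that of counting error. For the 2 columns of a library it was 2.48 to 2.77 times. The first used summed counts and the second single columns, and a statistic above counting error grows with the counts. The ranges are therefore not at like depth. The 2 columns differ in name only by a suffix and were taken as repeat runs, so 3 replicates per group were kept. The labels do not map libraries to the 2 transductions, so a transduction batch cannot be told apart, and p-values measure the spread between these libraries.

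In R 4.3.3, edgeR 4.0.16 was used with TMM factors, filterByExpr (minimum count 10, minimum total 15) and the quasi-likelihood test on all 12 libraries with 1 coefficient per group; SE is the log2 fold change divided by the square root of the F statistic. Benjamini-Hochberg adjustment ran over 15419 genes, with limits of 1.5 for the fold change and 0.05 for the adjusted p, or 0.05 alone for the difference of responses. The procedure was tested on simulated data. DESeq2 1.42.0 was an alternative, as were library-size scaling, no filter, a mean above 5 CPM, the 6 libraries of a comparison alone, single columns, a replicate block and leaving out each library.

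The members and lists were chosen with earlier results of these data known. Genes with full values are, for each of 6 roles, those with the smallest p for the difference and the largest and smallest DHT response in shTMEFF2; genes called for the difference or in shScramble; genes not called in shTMEFF2; and the 3 extreme further genes in each direction. Other genes are named with their reason: those called with DHT, those next to the limit, subunits of the same complex, and CENPP for its spread. Positions and the overlaps of 23 of the 41 genes with other genes come from GENCODE v44, promoter windows from RefSeq (GRCh38.p14). Log2 levels per library used a prior count of 2.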

Additional observations from a re-analysis of the deposited data

Results flagged for a closer look

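Of the 41 genes, 3 had a DHT response that differed between the lines by the interaction test (edgeR's quasi-likelihood test, Benjamini-Hochberg over all genes tested). CENPN responded less in shTMEFF2 by -1.25 (adjusted p = 0.0015), BUB1B responded more by 0.83 (adjusted p = 0.034) and CENPI responded more by 0.87 (adjusted p = 0.043), on the log2 scale. Over all alternatives the adjusted p ranged from 9.3e-10 to 0.0059 for CENPN, from 0.0013 to 0.095 for BUB1B and from 0.0045 to 0.25 for CENPI. The study picked BUB1B and CENPI from these libraries, first for their rise with DHT in shTMEFF2, so their larger responses are not independent evidence. Of the 37 genes outside that choice, 0 were called larger in this fit (22 at an unadjusted p under 0.05, 5 with DESeq2). With the replicate number as a block, PLK1, TRIP13, BUB1 and SPC25 were among the genes called larger. Dixon's check of outlying values was not run on groups of 3.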

How the results depend on the processing

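The count of genes called higher with DHT in shTMEFF2 (35) was 27 to 38 when 1 library was left out, and its median of 0.88 was 0.81 to 1.11, the highest without shTMEFF2 with vehicle replicate 3. In shScramble the count of 4 was 3 to 7, with 7 without shScramble with vehicle replicate 2, and 14 on the adjusted p alone. Without DHT the median of -0.10 between the lines was -0.29 to -0.02. With DHT the count of 5 was 1 to 11 over left-out libraries, 10 with scaling by library size only and 12 on the adjusted p alone. For the difference of responses the count of 2 was 0 to 16 over left-out libraries, 7 with DESeq2, 6 with no filter on low counts and 1 with the first column of each library alone. Scaling by library size moved the median of all genes tested to -0.082 for DHT in shScramble and 0.074 for the difference. In no alternative did a called gene change direction. The cause of these shifts was not tested, beyond the fewer libraries in each left-out fit.

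The replicate numbers are not labelled as pairs, and whether they pair the libraries is not known. Same-number correlations of deviations were -0.00 to 0.17, with 2 of 18 over 0.1. In 33 of 36 cases a library correlated best with its own number. With the number as a replicate block, 10 genes were called for the larger response in place of 2, among them PLK1, TRIP13, BUB1 and SPC25. Depth did not limit detection, since the lowest count of any member in a library was 79 (CENPP).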
